A study of Mus musculus with 9 samples.

Results

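Expression of the genes of the dystrophin complex and of agrin was followed in the perinatal mouse heart. The 8 genes, *Dmd*, *Utrn*, *Dtna*, *Dag1*, *Agrn*, *Sgca*, *Sgcb* and *Sgcd*, were found by symbol in a deposited table of 48820 genes, and all 8 averaged at least 1 FPKM over the hearts, as did 13618 genes in all, which were tested. FPKM are fragments per kilobase of transcript, scaled to the mapped depth of a library, so levels of different genes are compared here per length of transcript. The lengths behind the deposited values are not given, and the order of genes by level could change with them. The table holds 9 hearts of C57BL/6J mice, genotype WT and without treatment, with 3 biological replicates each at embryonic day 18.5 (E18.5d), postnatal day 1 (P1d) and postnatal day 7 (P7d). The comparison asks which genes of this complex changed between late fetal life and the first week after birth, the period in which the study followed the maturation of the heart.

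The dystrophin complex links the actin cytoskeleton of a muscle cell to the basement membrane outside it. Dystrophin binds actin and the membrane protein dystroglycan, dystroglycan binds laminin, agrin and perlecan in the matrix through its sugar chains, and the sarcoglycans and sarcospan hold this link together within the membrane. Utrophin is the close relative of dystrophin that is prominent in fetal muscle and can take its place in the complex. Mutations in *DMD* and in sarcoglycan genes cause muscular dystrophies that affect the heart, and agrin, known from the neuromuscular synapse, has also been studied as a matrix signal of the neonatal heart.

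Each heart was sequenced to 25.0 to 45.5 M fragments (M, 1e6), as read from the steps between low FPKM values, and the member with the fewest fragments still rested on about 470 of them. The 9 hearts were labelled as male, but *Xist*, the RNA of the inactive X chromosome, stood at 58.03 to 97.03 FPKM in 4 of them (replicates 1 and 3 at E18.5d and replicates 2 and 3 at P7d), with 4 Y-linked genes listed at 0. In the other 5 hearts *Xist* was at most 0.11 FPKM and the Y-linked genes were at least 9.74 FPKM. This leaves 1 heart at E18.5d and 1 at P7d that match the label. All hearts at P1d were without *Xist*, so a comparison with P1d also differs in the share of hearts with *Xist*. With *Xist* as a covariate, the genes at an adjusted p under 0.05 by limma went from 6260 to 4500 at P1d against E18.5d. At P7d against P1d they went from 6013 to 3905. Main changes of the 8 genes are given with and without the 4 hearts, while named genes of the other lists are given over all hearts. The summed level of 8 cardiomyocyte markers was 21800 to 22600 FPKM at E18.5d, 25500 to 28000 at P1d and 27700 to 28900 at P7d, and against E18.5d the P7d hearts had 5 of 8 markers higher and 1 lower. The 6 endothelial markers summed to 385 to 415, 443 to 477 and 501 to 517 FPKM at the 3 stages, the 6 fibroblast markers to 856 to 900, 697 to 979 and 1120 to 1150, and the 5 epicardial markers to 52.7 to 63.7, 51.4 to 67.2 and 27.6 to 32.0. The 8 markers of skeletal muscle summed to 4.85 to 6.36 FPKM at E18.5d, 3.20 to 3.42 at P1d and 1.94 to 2.36 at P7d, with *Pax7* listed at 0, and the 5 lung and airway markers to 1.5 to 137, 0.23 to 221 and at most 0.27 FPKM. In whole hearts, fewer cells of a type and less RNA per cell cannot be told apart. The part of cell composition in the changes below was not tested.

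The 8 genes differ widely in length. In GENCODE M21 of GRCm38, *Dmd* (ENSMUSG00000045103.17) spans chrX:82948870-85206141 on the plus strand, 2257.3 kb, the fourth longest of the 13523 tested genes with an annotated position. *Sgcd* (ENSMUSG00000020354.15, chr11:46896253-47988969, minus strand) spans 1092.7 kb, and *Utrn* (ENSMUSG00000019820.9, chr10:12382188-12869365, minus strand) 487.2 kb. *Sgca* (ENSMUSG00000001508.15, chr11:94962791-94976327, minus strand), with 13.5 kb, and *Sgcb* (ENSMUSG00000029156.11, chr5:73632749-73647790, minus strand), with 15 kb, are the short ones. *Agrn* (ENSMUSG00000041936.18) lies at chr4:156165290-156197488 and *Dag1* (ENSMUSG00000039952.15) at chr9:108204634-108263958, both on the minus strand. The eighth gene, *Dtna* (ENSMUSG00000024302.15), shares exon sequence with an antisense gene, and the use of strand in counting is not given in the sources used here. A deposited value pools the isoforms of a gene, and *Dmd* alone has 14 annotated transcripts.

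Promoter windows from RefSeq (GRCm38.p6) were matched for 7 of the 8 genes. The 250 bases before a start site, written 5′ to 3′ on the strand of the gene, are given for *Dmd*, whose value pools start sites far apart, for *Sgca*, which rose most, and for the first start site of *Agrn*, which fell. *Agrn* and *Dag1* also have 2 start sites each in RefSeq. Both strands were searched for 5 motifs, namely the E-box CANNTG, the GC box GGGCGG, the TATA box TATAAA, the CArG box bound by serum response factor and the site bound by MEF2. In the windows of *Dmd* and *Sgca* the capitals mark E-boxes, the CArG box and the MEF2 site, and in that of *Agrn* they mark GC boxes.
Dmd, first start site, chrX:82948620-82948869, plus strand: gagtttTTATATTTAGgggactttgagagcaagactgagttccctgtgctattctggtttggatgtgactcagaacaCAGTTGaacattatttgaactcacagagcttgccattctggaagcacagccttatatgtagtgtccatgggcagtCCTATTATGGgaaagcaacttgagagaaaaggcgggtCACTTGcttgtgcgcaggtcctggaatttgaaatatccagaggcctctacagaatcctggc
Dmd, second start site, chrX:85048045-85048294, plus strand: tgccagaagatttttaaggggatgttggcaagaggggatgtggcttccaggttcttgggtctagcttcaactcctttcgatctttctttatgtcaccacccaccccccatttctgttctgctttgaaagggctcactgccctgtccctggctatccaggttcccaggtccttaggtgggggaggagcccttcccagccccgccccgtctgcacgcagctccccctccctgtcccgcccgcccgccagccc
Sgca, chr11:94976328-94976577, minus strand: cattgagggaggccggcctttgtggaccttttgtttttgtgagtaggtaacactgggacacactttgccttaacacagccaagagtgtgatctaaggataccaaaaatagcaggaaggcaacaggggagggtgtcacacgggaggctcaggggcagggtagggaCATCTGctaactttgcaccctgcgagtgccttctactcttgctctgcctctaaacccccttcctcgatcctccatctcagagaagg
Agrn, first start site, chr4:156197489-156197738, minus strand: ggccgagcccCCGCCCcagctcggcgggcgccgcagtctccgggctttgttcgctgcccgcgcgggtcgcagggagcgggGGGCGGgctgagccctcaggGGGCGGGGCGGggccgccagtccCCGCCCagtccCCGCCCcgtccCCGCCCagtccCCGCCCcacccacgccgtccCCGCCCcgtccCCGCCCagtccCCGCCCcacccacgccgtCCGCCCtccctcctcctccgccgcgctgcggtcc
The first *Dmd* window holds a CArG box 98 bases before the start site, a MEF2 site at 244 bases that overlaps a TATA box match at 245, and E-boxes at 173 and 61 bases. Of 32536 RefSeq windows, 1.48% hold a CArG box, 2.89% a MEF2 site, 12.3% a TATA box, 33.0% a GC box and 66.2% an E-box. The second *Dmd* start lies 2099425 bases downstream of the first, and its window has 3 GC boxes and none of the other 4 motifs. The *Sgca* window has 1 E-box, 86 bases before the start. The first *Agrn* window has 12 matches of the GC box, some of which overlap, and 83.6% G and C against a median of 52.4% over the windows. The second *Agrn* window, not printed, has 2 GC boxes, 1 E-box and 60.8% G and C. These matches are letters in a window, and no binding was measured in these hearts.

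*Dag1*, which encodes dystroglycan, was the most highly expressed of the 8 genes at each stage, with 86.0 ± 0.649 FPKM (mean ± SD, n = 3) at E18.5d, above 93.5% of the genes tested. At E18.5d the order after it was *Agrn*, then *Utrn* and *Dmd*, whose hearts overlapped, then *Sgcd*, and last *Sgca*, *Sgcb* and *Dtna*, which overlapped with their neighbours. At P1d *Dmd* overlapped with *Agrn*, and *Sgca* had moved up to overlap with *Utrn*. At P7d *Dmd* came second, with its hearts above those of *Agrn*, and *Agrn*, *Sgca*, *Sgcd* and *Utrn* formed a run in which each overlapped with the next. *Sgcb* and *Dtna* ended the order at P7d, without overlap between them. The order of the members was thus rearranged below *Dag1* over the 3 stages.

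**Figure D1:**
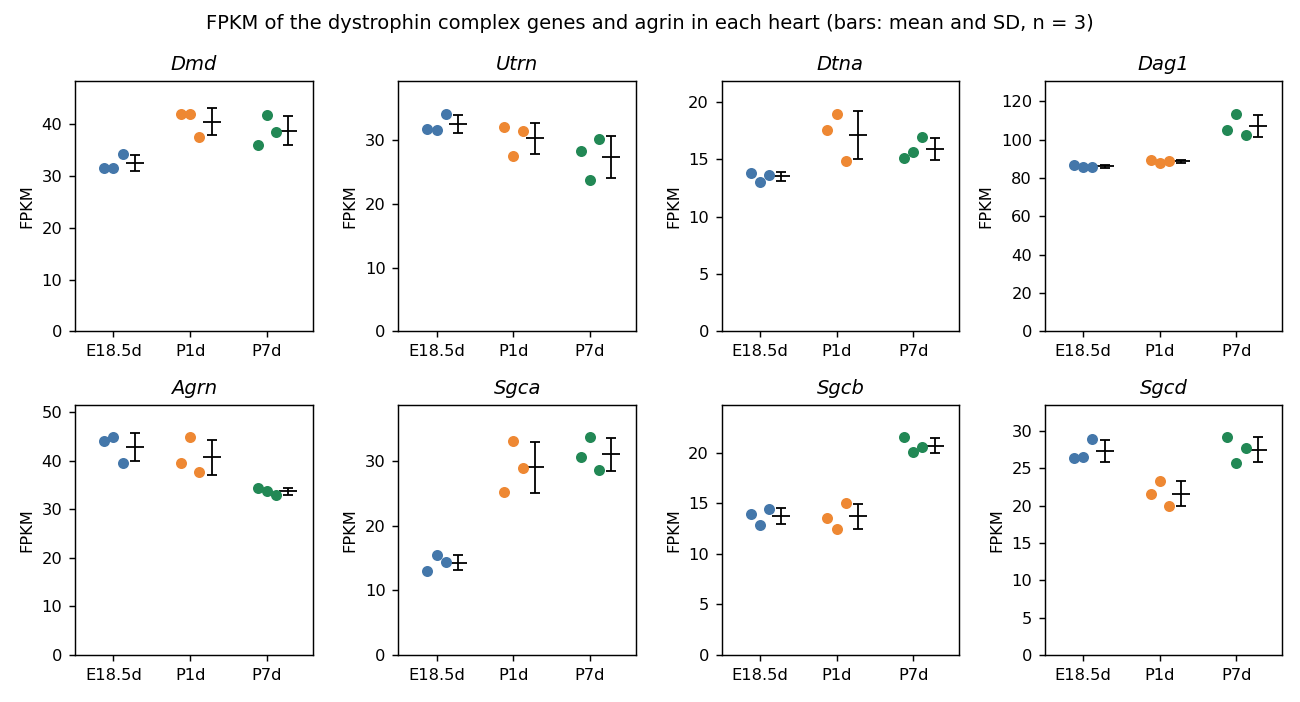
FPKM of each of the 8 genes (vertical axes, linear, starting at 0) in the 9 hearts by stage (horizontal axes), with points for hearts and bars for the mean ± SD of 3 hearts. *Sgca* sits at 13.07 to 15.43 FPKM at E18.5d and at 25.28 to 33.74 at P1d and P7d, while *Sgcb* is above its earlier values only at P7d.

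Between E18.5d and P7d, 4 of the 8 genes were higher (*Sgca*, *Sgcb*, *Dag1* and *Dmd*) and 1 was lower (*Agrn*) at an adjusted p under 0.05 by limma on log2(FPKM + 1). Among all genes tested, 49.4% passed in this comparison, 12.5% higher and 36.9% lower. The median change of the 8 genes was 0.24 on this scale and that of all genes -0.17. *Sgca*, *Sgcb*, *Dag1* and *Dmd* thus rose on deposited columns in which the median gene was lower. This median depended on the scaling of the columns, with -0.211 for equal sums, 0.008 by median of ratios and -0.021 by quantile normalization. Hearts of the 2 stages did not overlap for 7 members, 5 of them higher and 2 lower, against 62.5% of all genes, 16.9% higher and 45.6% lower. Between E18.5d and P1d, 3 members were higher (*Sgca*, *Dtna* and *Dmd*) and 1 lower (*Sgcd*), where 46.0% of all genes passed, 18.4% higher and 27.6% lower. The hearts of 5 members did not overlap, 4 higher and 1 lower, against 54.4% of all genes, 22.1% higher and 32.3% lower. Between P1d and P7d, 3 members were higher (*Sgcb*, *Sgcd* and *Dag1*) and 1 lower (*Agrn*), where 44.2% of all genes passed, 15.5% higher and 28.6% lower, and the hearts of 4 members did not overlap, 3 higher and 1 lower, against 53.6%, 19.3% higher and 34.3% lower. The median changes of the 8 genes were 0.02 in both of these shorter comparisons, beside -0.06 and -0.09 over all genes. The shares of members that passed, 62.5% at P7d against E18.5d and 50.0% in the other comparisons, lay near those of all genes. The 3 comparisons share hearts and are not independent of one another.

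**Figure D2:**
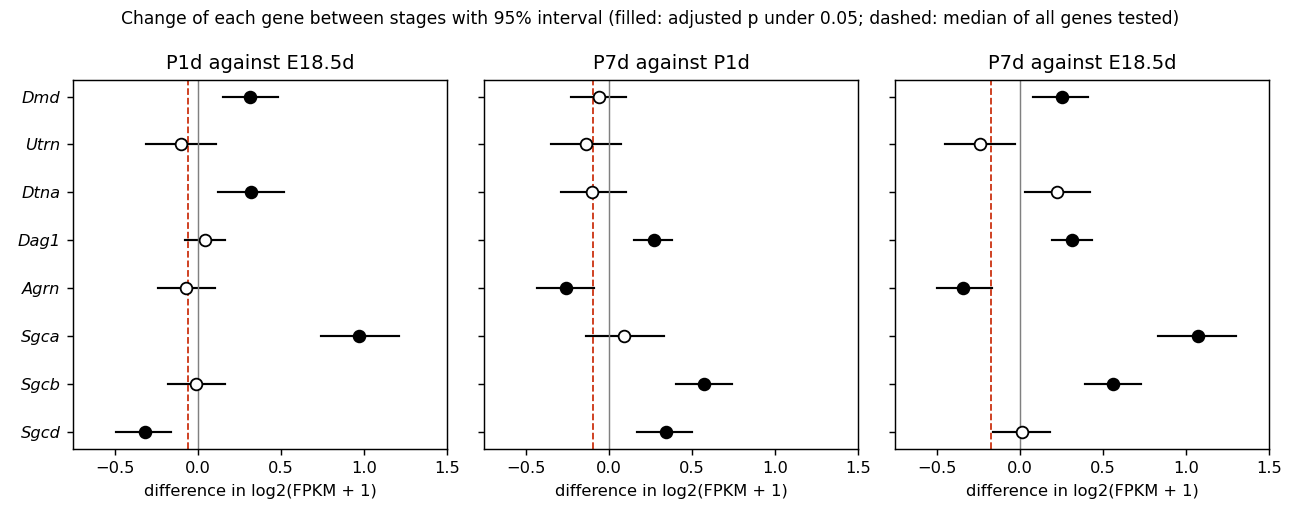
Change of each gene in log2(FPKM + 1) (horizontal axis) in the 3 comparisons, with its 95% interval, filled where the adjusted p was under 0.05, and a dashed line at the median of all genes tested. *Sgca* lies at 0.97 and 1.07 against E18.5d, *Agrn* is below 0 at P7d, and *Sgcd* is below 0 at P1d only. On columns scaled by median of ratios, *Agrn* no longer passes at P7d.

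*Dmd*, the gene of dystrophin, was expressed at 31.59, 31.57 and 34.28 FPKM in the 3 hearts at E18.5d, at 42.02, 42.08 and 37.51 at P1d and at 36.07, 41.74 and 38.46 at P7d. The fetal hearts were the 3 lowest of the 9, and the 2 postnatal stages overlapped. Compared with E18.5d, *Dmd* was 1.25-fold higher at P1d (log2 change 0.31, SE 0.07, adjusted p = 0.00721 by limma) and 1.19-fold higher at P7d (log2 change 0.25, SE 0.07, adjusted p = 0.0198 by limma). Between P1d and P7d the interval of the change ran from -0.23 to 0.10. The call at P7d was lost without replicate 1 (adjusted p = 0.0631 by limma) or replicate 2 (0.0674) at E18.5d, without replicate 2 at P7d (0.0754), and with columns scaled to an equal sum (0.139), which also ended the call at P1d (0.299). *Dmd* is X-linked, and the hearts with *Xist* had 31.59 and 34.28 FPKM at E18.5d and 41.74 and 38.46 at P7d, beside 31.57 and 36.07 in the single hearts without it. Among the hearts without *Xist* alone, the log2 change was 0.35 at P1d and 0.19 at P7d. With 1 heart left at E18.5d and 1 at P7d, only the sizes of these changes are given, here and for the other members.

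*Utrn*, the gene of utrophin, moved the other way in its means. Its level was 31.72, 31.62 and 34.16 FPKM at E18.5d, 32.02, 27.53 and 31.37 at P1d and 28.31, 23.75 and 30.19 at P7d. The hearts at P7d lay below those at E18.5d without overlap, and those at P1d overlapped with both. The log2 change at P7d was -0.24 (SE 0.09, 95% interval -0.45 to -0.03), which did not pass over all genes (adjusted p = 0.0542 by limma) and was close to the median shift of all genes. It passed without replicate 2 at P1d (adjusted p = 0.0407 by limma) or replicate 3 at P7d (0.0302). On columns scaled by median of ratios, where the median change of all genes was 0.008, that of *Utrn* was -0.04 (adjusted p = 0.76 by limma). Without the hearts with *Xist* the change of *Utrn* was -0.15.

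Within each heart, the ratio of *Dmd* to *Utrn* does not depend on the scaling of the column. The ratio was 0.996, 0.998 and 1.00 in the hearts at E18.5d, 1.31, 1.53 and 1.2 at P1d and 1.27, 1.76 and 1.27 at P7d. In these FPKM the ratio was thus close to 1.00 in the 3 fetal hearts and above it in the 6 postnatal hearts. The transcript lengths used are not given, and other fixed lengths would multiply each ratio by the same factor. With lengths fixed for each gene, the change of the ratio between stages does not depend on them, whereas which transcript was the more abundant does. Whether the lengths were the same in all hearts is not given. The means were 0.999 ± 0.00388, 1.35 ± 0.169 and 1.44 ± 0.279 (SD, n = 3), and the stages differed in an exact permutation test (p = 0.025, adjusted over 6 ratios 0.03, where 0.00357 is the smallest p that the design allows). An exact permutation test of any 2 stages alone cannot go below p = 0.1 with 3 hearts against 3. Without any 1 of the fetal hearts the exact permutation test gave p = 0.104, and without replicate 1 at P1d 0.0821, with a log2 change from E18.5d to P7d of 0.50 to 0.51 in these 4 cases beside 0.51 over all hearts. In the hearts without *Xist* alone the log2 change of the ratio from E18.5d to P7d was 0.35, against 0.51 over all hearts. With 1 heart left at each of these stages, this change cannot be tested.

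*Dtna* encodes alpha-dystrobrevin, which binds dystrophin and anchors the syntrophins. It was expressed at 13.80, 13.02 and 13.59 FPKM at E18.5d, at 17.59, 18.98 and 14.86 at P1d and at 15.15, 15.61 and 16.97 at P7d. The fetal hearts were again the 3 lowest. *Dtna* was 1.27-fold higher at P1d than at E18.5d (log2 change 0.32, SE 0.09, adjusted p = 0.0148 by limma). At P7d the change of 0.22 (95% interval 0.03 to 0.42) did not pass (adjusted p = 0.0589 by limma), but did so without replicate 2 (0.0352) or replicate 3 (0.0181) at P1d and on columns scaled by median of ratios (0.00404). The call at P1d was lost without replicate 2 at E18.5d (adjusted p = 0.052 by limma) and with columns of equal sum (0.268). Without the hearts with *Xist* the change was 0.37 at P1d and 0.20 at P7d. Its ratio to *Dmd* was 0.374 to 0.451 in the 9 hearts, with stage means of 0.415, 0.422 and 0.412 in order of age (exact permutation p = 0.914). The ratio did not differ between stages beyond the spread of the hearts, although a p of this size does not show that it was equal.

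*Dag1* rose late. The hearts stood at 86.75, 85.47 and 85.92 FPKM at E18.5d, at 89.51, 87.83 and 88.70 at P1d and at 104.88, 113.49 and 102.23 at P7d. The 3 stages did not overlap, but those at E18.5d and P1d lay within a few FPKM of each other (log2 change 0.04, 95% interval -0.08 to 0.16). At P7d *Dag1* was 1.24-fold higher than at E18.5d (log2 change 0.31, SE 0.05, adjusted p = 0.00118 by limma) and 1.21-fold higher than at P1d (log2 change 0.27, SE 0.05, adjusted p = 0.00324 by limma). Among the hearts without *Xist* alone these changes were 0.29 and 0.24.

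*Agrn* encodes agrin, a heparan sulfate proteoglycan of the basement membrane and a ligand of dystroglycan, and was the one member lower at P7d than at E18.5d past the threshold. It was expressed at 44.07, 44.81 and 39.54 FPKM at E18.5d, at 39.60, 44.83 and 37.72 at P1d and at 34.34, 33.72 and 32.94 at P7d. The 3 hearts at P7d were the lowest of the 9, and those at E18.5d and P1d overlapped. The level at P7d was 0.786 times that at E18.5d (log2 change -0.34, SE 0.08, adjusted p = 0.00509 by limma) and 0.827 times that at P1d (log2 change -0.26, SE 0.08, adjusted p = 0.0187 by limma). The fall was larger than the median shift of all genes, but on columns scaled by median of ratios it was -0.13 in both comparisons and did not pass (adjusted p = 0.186 and 0.172 by limma). The fall from P1d to P7d was also lost with quantile normalization (adjusted p = 0.0918 by limma), with equal column sums (0.256), with a covariate for *Xist* (0.122) and without replicate 3 at P7d (0.0592). Without the hearts with *Xist* the changes at P7d were -0.37 against E18.5d and -0.24 against P1d.

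Transcript levels of *Agrn* and *Dag1* moved apart at P7d when compared within each heart. The ratio of *Agrn* to *Dag1* was 0.508, 0.524 and 0.460 at E18.5d, 0.442, 0.510 and 0.425 at P1d and 0.327, 0.297 and 0.322 at P7d. The hearts at P7d were below the other 6 without overlap, and those at E18.5d and P1d overlapped. The means of 0.497 ± 0.0333, 0.459 ± 0.0450 and 0.316 ± 0.0162 (SD, n = 3) differed between stages in an exact permutation test (p = 0.0107, adjusted over 6 ratios 0.0214). In the hearts without *Xist* alone the log2 change of the ratio from E18.5d to P7d was -0.68, against -0.66 over all hearts.

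The 3 sarcoglycan members, subunits of one complex in striated muscle, did not move together. *Sgca* encodes alpha-sarcoglycan, the subunit found in skeletal and cardiac muscle. Its level was 13.07, 15.43 and 14.46 FPKM at E18.5d, 25.28, 33.16 and 28.99 at P1d and 30.71, 33.74 and 28.72 at P7d. Each of the 6 postnatal hearts was far above the fetal ones, and the postnatal stages overlapped. *Sgca* was 2.04-fold higher at P1d (log2 change 0.97, SE 0.10, adjusted p = 9.42e-05 by limma) and 2.17-fold higher at P7d (log2 change 1.07, SE 0.10, adjusted p = 4.77e-05 by limma) than at E18.5d, the largest changes among the members. From P1d to P7d the interval was -0.14 to 0.33. Without the hearts with *Xist* the changes against E18.5d were 0.87 at P1d and 0.95 at P7d.

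*Sgcb* encodes beta-sarcoglycan, a core subunit of that complex, and rose a stage later. The hearts had 13.95, 12.87 and 14.42 FPKM at E18.5d, 13.57, 12.47 and 15.01 at P1d and 21.52, 20.04 and 20.60 at P7d. The values at E18.5d and P1d lay in the same range, and the 3 hearts at P7d were above the other 6. *Sgcb* was 1.51-fold higher at P7d than at E18.5d (log2 change 0.56, SE 0.08, adjusted p = 0.000343 by limma) and than at P1d (log2 change 0.57, SE 0.08, adjusted p = 0.000409 by limma). Between E18.5d and P1d the change was -0.01 (95% interval -0.18 to 0.16), and its sign turned under other scalings of the columns. Without the hearts with *Xist* the changes at P7d were 0.70 against E18.5d and 0.62 against P1d.

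*Sgcd*, the gene of delta-sarcoglycan, was lowest at P1d. It was expressed at 26.35, 26.51 and 28.91 FPKM at E18.5d, at 21.58, 23.28 and 19.95 at P1d and at 29.15, 25.73 and 27.66 at P7d. The 3 hearts at P1d lay below the other 6, and those at E18.5d and P7d overlapped. The level at P1d was 0.793 times that at E18.5d (log2 change -0.32, SE 0.07, adjusted p = 0.00648 by limma), and that at P7d was 1.27-fold higher than at P1d (log2 change 0.34, SE 0.07, adjusted p = 0.00589 by limma). From E18.5d to P7d the change was 0.01 (95% interval -0.16 to 0.18), which turned to -0.03 with equal column sums and to 0.22 by median of ratios, where it passed (adjusted p = 0.0353 by limma). Without the hearts with *Xist* the change was -0.29 from E18.5d to P1d and 0.42 from P1d to P7d.

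Ratios within hearts showed the same shift in subunit proportions independently of column scaling. *Sgca* to *Sgcb* was 0.937, 1.2 and 1.00 at E18.5d, 1.86, 2.66 and 1.93 at P1d and 1.43, 1.68 and 1.39 at P7d. The 3 stages did not overlap, with P1d the highest and E18.5d the lowest (exact permutation p = 0.00357, the smallest the design allows, adjusted over 6 ratios 0.0214). The mean ratio of *Sgca* to *Sgcd* was 0.526 ± 0.0485, 1.35 ± 0.155 and 1.13 ± 0.153 (SD, n = 3; exact permutation p = 0.00714, adjusted 0.0214). In these FPKM the ratio of *Sgca* to *Sgcd* was thus below 1.00 in the 3 fetal hearts and above it in the 6 postnatal hearts. The transcript lengths used are not given, and other fixed lengths would multiply each ratio by the same factor. In GENCODE M21 *Sgcd* has 8257 bases of exons but a longest transcript of 4453. With lengths fixed for each gene, the change between stages does not depend on them, whereas which transcript was the more abundant does. Whether the lengths were fixed in this way is not given. The mean ratio of *Sgcd* to *Sgcb* was 1.98 ± 0.0873, 1.60 ± 0.269 and 1.33 ± 0.0378 (SD, n = 3; exact permutation p = 0.0143, adjusted 0.0215). Leaving out replicate 2 or 3 at E18.5d or replicate 2 at P7d gave an exact permutation p of 0.05 for this last ratio. Among the hearts without *Xist*, the log2 change from E18.5d to P7d was 0.25 against 0.52 over all hearts for *Sgca* to *Sgcb*. It was 0.86 against 1.10 for *Sgca* to *Sgcd*, and -0.60 against -0.58 for *Sgcd* to *Sgcb*.

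**Figure D3:**
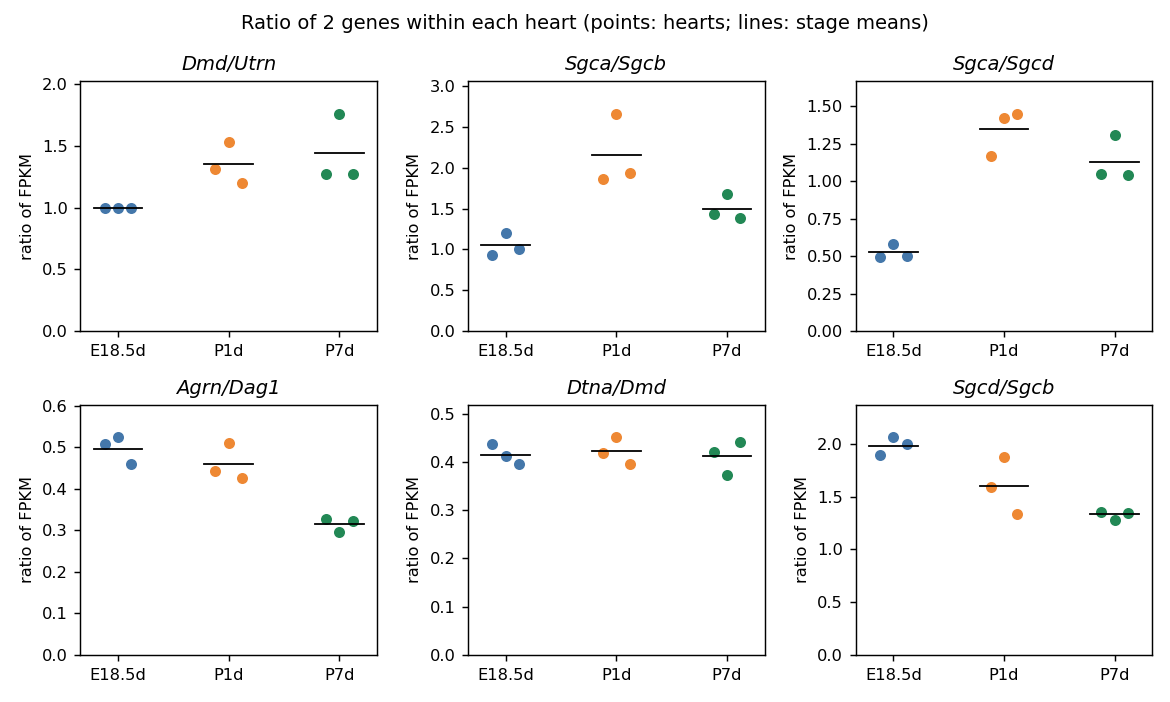
Ratio of the FPKM of 2 genes within each heart (vertical axes, linear, starting at 0) by stage, with points for hearts and lines for stage means. *Dmd* to *Utrn* lies at 0.996 to 1.00 in the fetal hearts and at 1.2 to 1.76 after birth, *Agrn* to *Dag1* is lowest at P7d, and *Dtna* to *Dmd* stays between 0.374 and 0.451.

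The FPKM columns summed to between 1347981 and 1794160, and the changes moved with the scaling of the columns. Scaling by median of ratios raised the changes at P7d against E18.5d to 1.27 for *Sgca*, 0.76 for *Sgcb*, 0.52 for *Dag1*, 0.45 for *Dmd* and 0.42 for *Dtna*, all of which then passed. Under equal column sums *Sgca*, *Sgcb* and *Dag1* still passed at P7d, and at P1d 1 member was higher (*Sgca*) and 2 were lower (*Sgcd* and *Agrn*). Over all genes the split at P7d against E18.5d was 1706 higher and 5025 lower as deposited, 3159 and 2545 by median of ratios, 2889 and 2937 by quantile normalization and 1267 and 4443 with equal column sums. For P1d against E18.5d it was 2505 higher and 3755 lower as deposited, 3215 and 3031 by median of ratios, 3206 and 3066 by quantile normalization and 1175 and 4694 with equal column sums. For P7d against P1d it was 2112 higher and 3901 lower as deposited, 3194 and 2471 by median of ratios, 2879 and 2787 by quantile normalization and 2200 and 1729 with equal column sums. The rises of *Sgca* and *Sgcb*, the rise of *Dag1* at P7d and the low level of *Sgcd* at P1d passed under each of the 4 scalings.

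**Figure D4:**
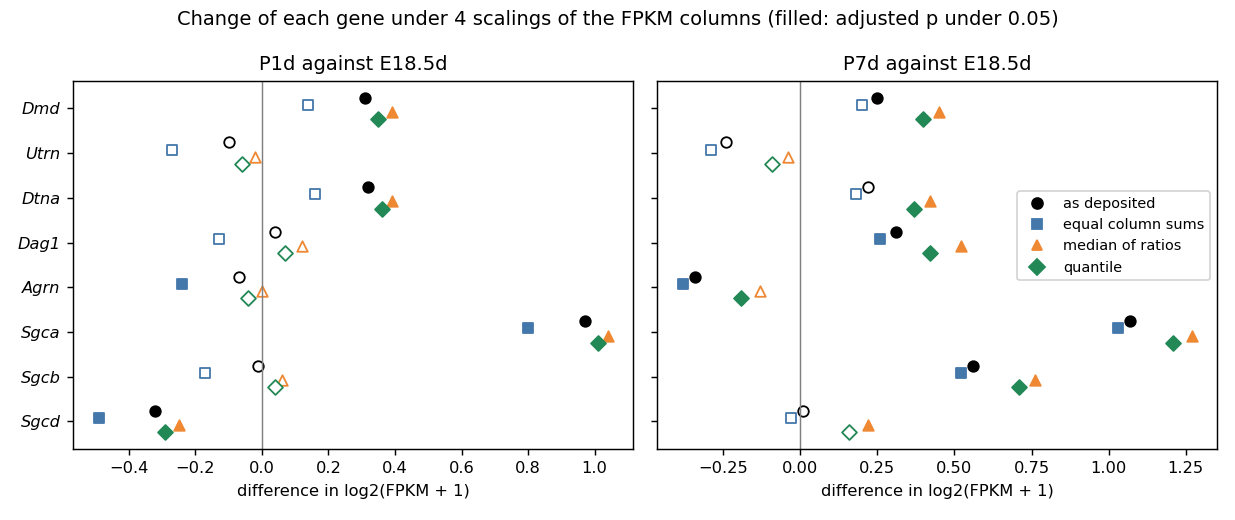
Change of each gene in log2(FPKM + 1) (horizontal axes) at P1d and P7d against E18.5d on the columns as deposited, with equal sums, by median of ratios and by quantile normalization, filled where the adjusted p was under 0.05. *Sgca* passes in all 4 scalings in both panels, *Agrn* at P7d does not pass by median of ratios, and *Dmd* does not pass with equal column sums.

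Other subunits of the complex were compared next. Of 12 such genes 8 were tested, and at P7d against E18.5d 4 were higher and 2 lower, with a median of 0.07. Beside this and the lists below, 49.4% of all genes passed in this comparison, 12.5% higher and 36.9% lower, with a median of -0.17. At P1d against E18.5d 46.0% of all genes passed (median -0.06), and at P7d against P1d 44.2% (median -0.09). Among the rising genes were *Sspn* (0.36, adjusted p = 0.0038 by limma), the gene of sarcospan, and the syntrophin genes *Sntb1* (0.37, adjusted p = 0.00788) and *Sntb2* (0.19, adjusted p = 0.0451). *Dtnb*, the gene of beta-dystrobrevin, fell by 0.47 on the log2 scale (adjusted p = 0.00377 by limma) from 5.67 ± 0.773 to 3.78 ± 0.275 FPKM (SD, n = 3). *Sgce*, the gene of epsilon-sarcoglycan, the more widely expressed relative of *Sgca*, had a change of -0.25 (adjusted p = 0.0257 by limma) that was -0.05 by median of ratios and did not then pass (adjusted p = 0.664). The alpha and epsilon forms thus had opposite signs at P7d. *Sntg2*, another syntrophin gene, had means of 1.28 to 1.45 FPKM. At P1d against E18.5d 1 of the 8 passed, and it was higher, and from P1d to P7d 2 were higher and 2 lower. Calls of this list at P7d against E18.5d ended without single hearts for *Sntb2* (6 of the 9 hearts, highest adjusted p = 0.148 by limma) and *Sgce* (3 hearts, 0.0921), and with equal column sums for *Sspn*, *Sntb1* and *Sntb2*. *Sgcz*, *Sntg1* and *Drp2* had means under 1 FPKM at each stage, and *Dytn* was listed at 0.

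Among 17 tested genes of the associated membrane and cytoskeleton, the change from E18.5d to P7d was upward in 6 and downward in 6 that passed, and its median was 0.00. *Trim72*, which takes part in membrane repair, rose from 4.70 ± 0.172 to 40.6 ± 2.25 FPKM (SD, n = 3; log2 change 2.87, adjusted p = 1.64e-07 by limma), and had 6.27 ± 0.946 FPKM at P1d. *Dysf*, the gene of the repair protein dysferlin, rose by 0.75 (adjusted p = 0.000435), and *Plec*, the gene of the cytoskeletal linker plectin, by 0.72 (adjusted p = 0.00232). *Ank3*, the gene of ankyrin-G, fell by 0.83 (adjusted p = 4.21e-06 by limma) from 77.0 ± 2.58 to 43.0 ± 1.66 FPKM. *Krt19*, a keratin gene, had a log2 change of -1.42 (adjusted p = 0.000215 by limma) and *Krt8* one of -0.44 (adjusted p = 0.00607), and the epicardial markers, of which 4 of 5 were lower at P7d, moved with them. Their part in these changes was not tested. At P1d against E18.5d 2 genes of this list were higher and 5 lower, and *Cavin4*, a caveola gene of muscle, had a change of -0.78 (adjusted p = 0.000138 by limma), while *Cav3*, the muscle caveolin gene, rose by 0.37 (adjusted p = 0.00169). *Krt8* at P7d did not pass by median of ratios, nor *Cav3* at P1d with equal column sums. From P1d to P7d, 5 were higher and 5 lower.

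Dystroglycan binds its ligands through a sugar chain built by a series of enzymes. Of the 17 tested glycosylation genes, 1 had risen and 3 had fallen by P7d against E18.5d, and 13 did not pass. Among them were *Pomgnt1* (0.19, adjusted p = 0.028 by limma), *B3galnt2* (-0.38, adjusted p = 0.00375) and *Pomt1* (-0.26, adjusted p = 0.0187), and the last pair did not pass by median of ratios. More passed at P1d, with 2 higher and 5 lower than at E18.5d. *B3galnt2* went from 6.11 ± 0.148 to 2.70 ± 0.134 FPKM (SD, n = 3; log2 change -0.94, adjusted p = 2.69e-05 by limma) and stood at 4.46 ± 0.420 at P7d. *Pomt1* went from 7.57 ± 0.0473 to 4.36 ± 0.151 FPKM (log2 change -0.68, adjusted p = 0.000119 by limma) and stood at 6.18 ± 0.594 at P7d. *Rxylt1* rose by 0.45 (adjusted p = 0.0181) and *Ispd* by 0.27 (adjusted p = 0.0481) at P1d, and *Gmppb* had a change of -0.53 (adjusted p = 0.00451 by limma). In the step from P1d to P7d 4 of them rose and 1 fell. Calls ended without single hearts for *Pomgnt1* (3 of the 9 hearts, highest adjusted p = 0.0981 by limma) and *Pomt1* (4 hearts, 0.0719) at P7d and for *Rxylt1* (2 hearts, 0.0605) and *Ispd* (8 hearts, 0.146) at P1d, and with equal column sums for *Pomgnt1*, *Rxylt1* and *Ispd*. The level of *Dag1* itself hardly differed between E18.5d and P1d, as given above.

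On the matrix side of the link, 16 genes of matrix ligands and basement membrane were tested. This list also holds the integrin receptor genes *Itga7* and *Itgb1*. Of the 16, 8 rose and 2 fell by P7d against E18.5d (median 0.25), with *Itga7* among the former and *Itgb1* among the latter. By P1d against E18.5d 3 rose and 5 fell (median -0.04), and between P1d and P7d 9 rose and 1 fell (median 0.38). *Lama2*, the alpha chain of the laminin of muscle, was expressed at 52.9 ± 1.24, 83.7 ± 7.37 and 108 ± 2.09 FPKM at the 3 stages (SD, n = 3; log2 change 1.02 at P7d against E18.5d, adjusted p = 3.93e-06 by limma). *Lamb2*, a laminin beta chain, rose by 0.90 (adjusted p = 7.36e-05), and *Itga7*, a laminin-binding integrin of muscle, by 2.13 (adjusted p = 1.64e-07 by limma) from 7.34 ± 0.338 to 35.6 ± 1.45 FPKM. *Lama4*, the laminin chain of vessels, had instead 127 ± 4.32 FPKM at E18.5d, 93.6 ± 4.02 at P1d (log2 change -0.43, adjusted p = 0.000207 by limma) and 123 ± 2.73 at P7d. *Slit2* had a change of -1.29 at P7d against E18.5d (adjusted p = 0.000109 by limma), and *Itgb1* one of -0.26 (adjusted p = 0.0334) that did not pass by median of ratios or without any 1 of 5 hearts (highest adjusted p = 0.123 by limma). *Hspg2*, the gene of perlecan, another proteoglycan ligand of dystroglycan, was at 171 ± 4.79, 150 ± 8.58 and 234 ± 4.88 FPKM, above *Agrn* at each stage. Its log2 change at P7d against E18.5d was 0.45 (adjusted p = 0.000198 by limma), where that of *Agrn* was -0.34. *Hspg2* was named after its values were seen.

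Agrin is best known for signalling through LRP4 and the kinase MuSK at the neuromuscular synapse. Of 10 genes of that path 5 were tested, and at P7d against E18.5d 0 were higher and 2 lower by limma, *Prss12* (-0.61, adjusted p = 0.0153), the gene of a protease that cuts agrin, and *Rapsn* (-0.32, adjusted p = 0.0311), the gene of rapsyn. At P1d against E18.5d 2 were lower, *Rapsn* (-0.33, adjusted p = 0.0279) and *Dok7* (-0.29, adjusted p = 0.0385), and from P1d to P7d 1 was higher and 1 lower. Leaving out single hearts ended the call of *Prss12* (1 of the 9 hearts, adjusted p = 0.0549 by limma), of *Rapsn* at P7d (5 hearts, highest 0.101) and at P1d (2 hearts, 0.0924) and of *Dok7* (4 hearts, 0.12). *Rapsn* and *Dok7* did not pass by median of ratios, nor *Prss12* by quantile normalization, and *Prss12* averaged 0.83 FPKM at P7d. *Lrp4* was expressed at 5.92 ± 0.0529, 5.90 ± 0.495 and 5.29 ± 0.427 FPKM (SD, n = 3). *Musk* had means of 0.0333, 0.05 and 0.153 FPKM. For scale, 3 fragments give 0.0659 to 0.12 FPKM on a transcript of 1 kb and less on a longer one, so these means are low but are not placed at the floor. *Chrna1*, *Chrne* and *Chrng*, subunit genes of the acetylcholine receptor, had means of at most 0.10 FPKM. *Chrnb1*, the one receptor subunit gene tested and named after its values were seen, had 1.60 ± 0.0971, 1.82 ± 0.511 and 2.74 ± 0.940 FPKM, and its log2 change of 0.50 at P7d against E18.5d did not pass (adjusted p = 0.0506 by limma), although the hearts did not overlap.

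**Figure D5:**
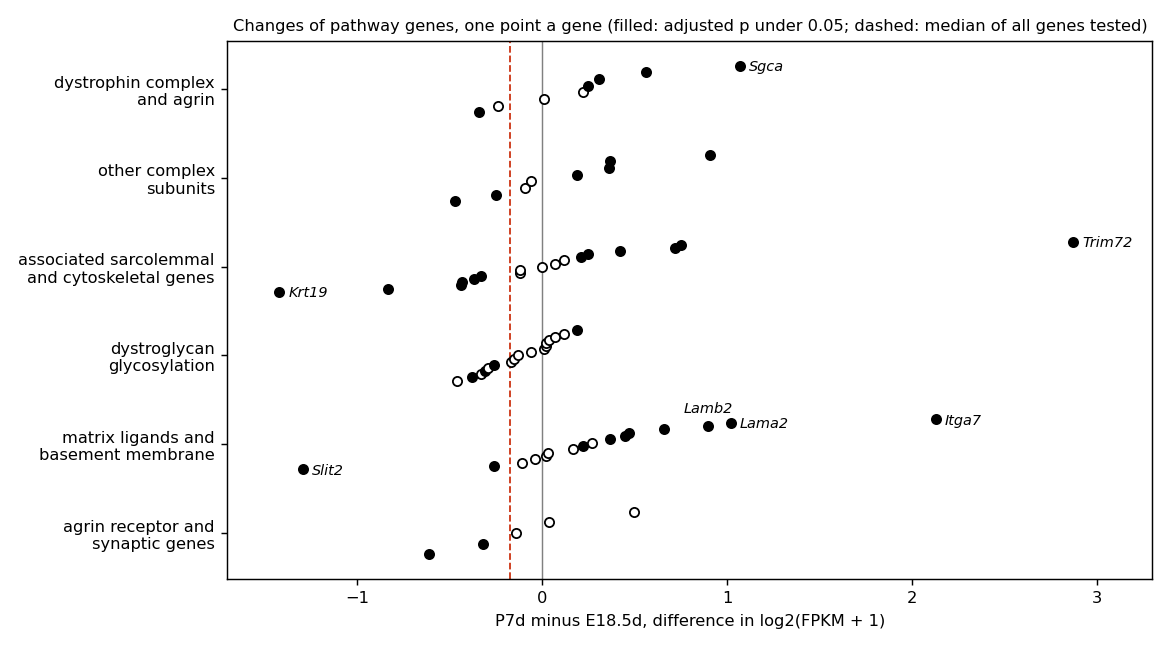
Change of each tested gene of the 6 lists in log2(FPKM + 1) at P7d against E18.5d (horizontal axis), filled where the adjusted p was under 0.05, with a dashed line at the median of all genes tested. *Trim72* and *Itga7* lie farthest to the right at 2.87 and 2.13, *Krt19* and *Slit2* farthest to the left, and the glycosylation genes lie close to the dashed line and 0. The vertical position within a list has no meaning.

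The genes whose levels followed each member most closely over the 9 hearts were listed among 8802 genes that had a symbol and averaged 5 FPKM or more, by Pearson's r of log2(FPKM + 1), as a description over hearts that share stages and columns. For *Dmd* they were *Agap3* (r = 0.957), *Btg2* and *Cdkn1a*, for *Dtna* *Exoc7* (0.957), *Ephx1* and *Cul9*, and for *Utrn* *Ddx46* (0.986), *Usp48* and *Zbed6*. *Agrn* was followed by *Anapc5* (0.985), *Dctn5* and *St6gal1*, and *Dag1* by *Asb10* (0.983), *Mgll* and *Plod1*. *Sgca* was closest to *Cd59a* (0.989), *Hagh* and *Plpp3*, *Sgcb* to *Map7d1* (0.983), *Cmya5* and *Hrc*, and *Sgcd* to *Mmaa* (0.954), *Tbc1d4* and *Plekhg2*. *Hrc*, which encodes a calcium-binding protein of the sarcoplasmic reticulum, averaged 60.7, 54.3 and 126 FPKM over the stages beside 13.7, 13.7 and 20.7 FPKM for *Sgcb*. None of the 24 genes so found was another member.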

How the data were processed

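RNA-seq of 9 hearts was analysed, grouped by stage as the labels give it. The authors deposited gene-level FPKM values, and their processing notes name STAR and the GRCm38 (mm10) build. The counting tool, annotation and use of strand are not given in the sources used here. Identifiers were matched to GENCODE M21 (48144 of 48820). Values were transformed to log2(FPKM + 1), a scale that understates changes of low genes. Genes that averaged 1 FPKM or more, 13618 in number, entered a fit by limma (version 3.58.1, R 4.3.3, eBayes with trend, all 3 stages in 1 fit, no covariate), with Benjamini-Hochberg adjustment over all of them and a threshold of 0.05. On simulated data of 13618 genes, 189 of 200 genes changed by a log2 of 1 (94.5%) were called at P7d against E18.5d and 190 (95%) at P7d against P1d, with 9 and 16 unchanged genes beside them. Smaller changes, changes in a larger share of genes and shifts of whole columns were not simulated. Ratios and exact two-sided permutation tests were computed with scipy 1.17.1 in Python 3.11.15. FPKM are not counts, so the depth of a heart was inferred from the spacing of its low values, of which 93.6% to 95.6% came out whole (tolerance 0.2) against 28.5% to 31.3% at other depths. A count of 3 fragments was taken as the floor, and these limits cover counting error only.

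The 8 genes, the lists and the tests were chosen with earlier results of these data known. Beside the members, the 3 largest non-overlapping changes past the threshold in each direction at P7d and at P1d against E18.5d were named in each list, with the tested subunits, the 3 closest genes of each member and the sex-linked genes. Some genes so chosen are not reported here by name, though the counts of the lists include them. The biological replicates have no stated litter or culture, so p-values measure the spread between these hearts. Results were recomputed with 0.1 as pseudocount, unfiltered, at 5 FPKM or more, under 3 other scalings, without the variance trend, on the compared stages alone, with replicate number as a block, with *Xist* above 1 FPKM as covariate, with a required log2 change of 1, and without each heart in turn. The fit on hearts without *Xist* was added after the data were seen.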

Additional observations from a re-analysis of the deposited data

How the results depend on the processing

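Of 480 recomputed changes of the 8 genes (3 comparisons under 20 alternatives), 423 kept their direction and their side of the threshold, 26 no longer passed, 11 passed in addition and 20 changed sign, each of the 20 in a change that had not passed. The rises of *Sgca* against E18.5d, of *Sgcb* and *Dag1* at P7d and the low level of *Sgcd* at P1d passed in 19 of 19 alternatives, which leave out the fit on hearts without *Xist* and the required log2 change of 1. The changes of sign were small. For P7d against P1d, *Dmd* went to 0.06 (equal column sums), 0.07 (median of ratios) and 0.05 (quantile), and *Dtna* to 0.03, 0.03 and 0.01. For P1d against E18.5d, *Agrn* went to 0.00 by median of ratios, *Dag1* to -0.13 with equal sums and *Sgcb* to 0.06 by median of ratios, 0.04 by quantile, 0.01 with the *Xist* covariate and 0.08 in hearts without *Xist*. *Sgcd* went to -0.03 at P7d against E18.5d with equal sums. Leaving out 1 heart gave ranges of 0.00 to 0.19 for *Sgca* (P7d against P1d), -0.07 to 0.05 for *Sgcb* (P1d against E18.5d) and -0.03 to 0.06 for *Sgcd* (P7d against E18.5d). The causes were not tested.

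In the hearts without *Xist*, an alternative added after the data were seen and with 1 heart at E18.5d and 1 at P7d, 0 members passed in any comparison, and over all genes 93 were higher and 101 lower at P7d against E18.5d, 239 and 584 at P1d against E18.5d and 75 and 104 at P7d against P1d. Of the lists, at most 2 genes passed in it (1 associated and 1 matrix gene at P7d against E18.5d, 1 glycosylation gene at P1d against E18.5d, 2 associated genes and 1 matrix gene at P7d against P1d, and 0 in the others). Log2 changes of ratios were 0.35 for *Dmd* to *Utrn*, 0.25 for *Sgca* to *Sgcb*, 0.86 for *Sgca* to *Sgcd*, -0.68 for *Agrn* to *Dag1*, 0.03 for *Dtna* to *Dmd* and -0.60 for *Sgcd* to *Sgcb*. Fewer hearts leave less power in this fit. With a log2 change of at least 1 required, 1 member (*Sgca*) was higher at P7d against E18.5d and 0 passed otherwise, and over all genes 267 were higher and 383 lower, 260 and 456, and 243 and 312 in the 3 comparisons in the same order. In the lists 2 associated and 3 matrix genes then passed at P7d against E18.5d, 0 at P1d against E18.5d, and 2 and 1 at P7d against P1d.

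With a mean of at least 5 FPKM, 2 members were lower at P7d against E18.5d (*Utrn* joined *Agrn*), 4 glycosylation genes passed at P1d, and 1 synaptic gene at P7d against each other stage. By median of ratios 0 members were lower at P7d against either stage, 3 other subunits passed and 0 synaptic genes at P1d, and 8 glycosylation genes and 1 synaptic gene at P7d against P1d. Over all genes 3159 were higher and 2545 lower at P7d against E18.5d and 3194 and 2471 at P7d against P1d. By quantile normalization the first split was 2889 and 2937, 0 members were lower at P7d against P1d, 2 other subunits passed at P1d, and 1 synaptic gene in each comparison. With equal sums 1 member was higher and 2 lower at P1d, 0 were lower at P7d against P1d, 3, 2 and 2 other subunits passed (P7d and P1d against E18.5d, P7d against P1d), 1 synaptic gene passed at P7d against P1d, and over all genes 1175 were higher at P1d and 1729 lower at P7d against P1d. Without a filter, 1, 0 and 0 synaptic genes passed in these 3 comparisons. With the *Xist* covariate 1607 genes were higher at P1d and 2438 lower at P7d against P1d, 3 associated, 5 matrix and 1 synaptic genes passed at P1d, and 0 members lower, 2 other subunits and 1 synaptic gene at P7d against P1d. With only the stages compared, 1 synaptic gene passed at P1d, and 2 other subunits and 1 synaptic gene at P7d against P1d.

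Deviations of hearts of the same replicate number correlated at -0.05 to 0.11. Hearts of different numbers were not compared in this way, so these values do not settle whether the numbers pair the hearts. With the replicate number as a block, 2 members were lower at P7d against E18.5d (*Utrn* joined), 2 other subunits and 1 synaptic gene passed at P1d, and the exact permutation p within blocks was 0.0556 for *Dmd* to *Utrn* (log2 change 0.51) and for *Sgcd* to *Sgcb* (-0.58). Leaving out 1 heart gave 1 to 2 members lower at P7d against E18.5d and 0 to 1 at P7d against P1d. Genes that passed were 2 to 5 for glycosylation and 1 to 3 for the synaptic list at P7d against E18.5d, 1 to 2 for other subunits, 4 to 9 for associated genes and 0 to 2 for the synaptic list at P1d, and 2 to 4 and 0 to 2 for other subunits and the synaptic list at P7d against P1d. Log2 changes of ratios ranged from 0.35 to 0.58 (*Dmd* to *Utrn*), -0.07 to 0.05 (*Dtna* to *Dmd*) and -0.62 to -0.55 (*Sgcd* to *Sgcb*). Values come from 3 hearts a stage, and changes of the size seen for *Utrn* and *Dtna* lay at the threshold.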
